A study of Rattus norvegicus with 6 samples.

Results

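The genes described here are 41 components of Wnt signalling: secreted Wnt ligands, the proteins that export them, their receptors and coreceptors, secreted antagonists, β-catenin with its destruction complex, and the Tcf/Lef transcription factors. They were found by gene symbol in a table of 17139 genes measured in rat nucleus pulposus cells in primary culture, which come from the soft centre of an intervertebral disc. Rows were found for 40 of the 41. Of these, 39 were matched by the table's Entrez identifier, and Fzd1, which has none there, by its KEGG identifier and protein name. Wnt2 had no matching row and has no expression value here. The genes were listed by their role in the pathway and not by a threshold on a measured value, though with earlier results of these data known. The cells were given 10 µM bradykinin, a peptide of the kinin family whose receptors are B1 and B2 (n = 3 libraries), or no treatment (control, n = 3 libraries), and polyadenylated RNA was sequenced. Titles of the treated samples read B2R, which is also how the B2 receptor is abbreviated; grouping went by the treatment label. The labels give no strain, age, sex or treatment time, and do not say that replicates came from separate animals or cultures, so the p-values cover differences among these libraries only, and those may be technical. Every gene carries the Ensembl identifier of its row; for Wls it is ENSRNOG00000036816.

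Wnt proteins are lipid-modified in the endoplasmic reticulum by the acyltransferase Porcn and carried to the cell surface by Wls. At the receiving cell, a Frizzled receptor with Lrp5 or Lrp6 restrains the destruction complex, so that β-catenin accumulates and acts with Tcf/Lef factors on target genes such as Axin2. Frizzleds together with Ror1, Ror2 or Ryk transmit other, β-catenin-independent signals, typically of Wnt5a. In the intervertebral disc and in cartilage, Wnt signalling is known for its part in development and in matrix turnover.

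Total counts per library were 12883067 to 14604917 in the bradykinin group and 14252966 to 15462764 in controls. Levels are CPM, that is counts scaled to a common library total with TMM factors, for single libraries in the order of their replicate numbers or as mean ± SD (n = 3 per group). Fold changes are on the log2 scale, bradykinin over control, with their SE. In bulk RNA, a lower level can come from fewer cells of a type or from less RNA per cell, and these cannot be told apart. One library, bradykinin replicate 3, was unlike the rest. Its Spearman correlations with them, across genes, were 0.960 to 0.963, against 0.992 to 0.996 among the other 5. Values are therefore also given without it where it bears on them. Of the nucleus pulposus markers, Acan had 4631 to 7040 counts with bradykinin and 3803 to 3963 in controls, and Sox9 235 to 384 and 321 to 352, while Col2a1 had at most 2 counts in any library. Of the 14 markers of this list, 10 were in the table, and Krt18, Krt19, Tbxt and Ca12 had no row under these symbols. Krt8 had 10 to 27 counts per library. Of the 10, 3 lay lower in every bradykinin library than in every control. Car3 was at 2.60 to 3.58 CPM with bradykinin and 7.66 to 8.49 CPM in controls, Pax1 at 82.3 to 94.7 and 97.1 to 117 CPM, and Cdh2 at 65.4 to 75.1 and 76.1 to 83.5 CPM. The reverse held for 2, Acan and the barely counted Col2a1. Endothelial markers summed to under 1 CPM in every library. The macrophage and leukocyte list, mostly Cd14, summed to 9.93 to 14.1 CPM with bradykinin and 8.79 to 9.90 CPM in controls. The fibroblast and annulus list, which holds the type I collagen genes, summed to 65410 to 81490 CPM with bradykinin and 69160 to 74140 CPM in controls. Of the smooth muscle and pericyte list, Acta2, Myh11 and Cnn1 were lower in every bradykinin library than in every control. Des was higher, at 34.1 to 46.1 CPM with bradykinin and 24.8 to 25.4 CPM in controls. For Tagln and the barely counted Rgs5 the groups overlapped. The sum of this list, mostly Acta2 and Tagln, was 2230, 2267 and 3122 CPM in bradykinin replicates 1, 2 and 3 and 3023 to 3151 CPM in controls. The nucleus pulposus list summed to 716, 751 and 506 CPM in those replicates and 503 to 531 CPM in controls, but without Acan the direction was opposite, with 218, 239.7 and 205 CPM and 246 to 265 CPM in controls. The part of these lists in the values below was not tested.

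Most Wnt pathway genes stood lower with bradykinin, and none passed the test in all 6 libraries. Of 36 tested Wnt genes, 29 had a log2 fold change below 0 and 7 above it, with a median of -0.18. Over all 12413 tested genes the median was 0.01, and 48.7% were below 0. In edgeR's quasi-likelihood F test, adjusted after Benjamini and Hochberg over all tested genes, 0 of the 36 had an adjusted p of 0.05 or less, against 0% of all genes, and their adjusted p ran from 0.678 to 0.983. DESeq2 and limma-voom also called 0 of the 36. At an unadjusted p under 0.05 stood 6 of them, all lower, a share of 16.7% against 2.89% of all genes lower, 3.95% higher and 6.84% in either direction. These 6 were the Wnt carrier gene Wls, the receptor genes Fzd3 and Fzd5, the antagonist genes Sfrp4 and Frzb, and the transcription factor gene Tcf7l1. Without control replicate 1 or control replicate 2 the count was 1 each, against 368 of 12535 and 449 of 12579 genes in either direction. Without control replicate 3 or bradykinin replicate 1 it was 3 each, against 428 of 12548 and 1078 of 12557 genes. Without bradykinin replicate 2 it was 8, against 1116 of 12579 genes.

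The median depended on bradykinin replicate 3. Without it, the median of the 36 was -0.05, with 22 lower and 14 higher, where 50% of all genes were below 0. In that fit of 5 libraries, 3.1% of 12536 tested genes were called, 1.95% higher and 1.15% lower (244 and 144 genes; 162 and 185 when scaled by library totals, which put the median of all genes at -0.03), and of the Wnt genes 1, Wls, was called. At an unadjusted p under 0.05 stood 7 of the 36, all lower, against 6.65% of all genes lower and 8.5% higher. They were the 6 named above and Ror2. The 36 genes deviated from the control mean by a median of -0.11 in bradykinin replicate 1, -0.02 in replicate 2 and -0.34 in replicate 3 (log2 CPM). Replicate 3 lay below all 3 controls for 26 of the 36, replicate 1 for 18 and replicate 2 for 14. Among all tested genes, 41.9%, 30.9% and 29.3% lay below the controls in replicates 3, 1 and 2.

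For 9 of the 36 genes every bradykinin library lay below every control library, a share of 25.0% against 8.71% of all tested genes. They were Wnt5a, Wls, Fzd3, Ror2, Sfrp2, Sfrp4, Frzb, Wif1 and Tcf7l1. The reverse held for Wnt9a alone among the 36, against 8.84% of all tested genes. Without bradykinin replicate 3, those 9 and Nkd2 lay below every control, 10 genes against 15.5% of all tested genes. Above every control then lay 6, namely Wnt9a, Fzd6, Fzd7, Fzd8, Lrp6 and Tcf7l2, which is 16.7% of the 36 against 16.2% of all tested genes. Without bradykinin replicate 2 the count below was 17 and that above was 4, against 14.8% and 15.7% of all tested genes.

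**Figure D1:**
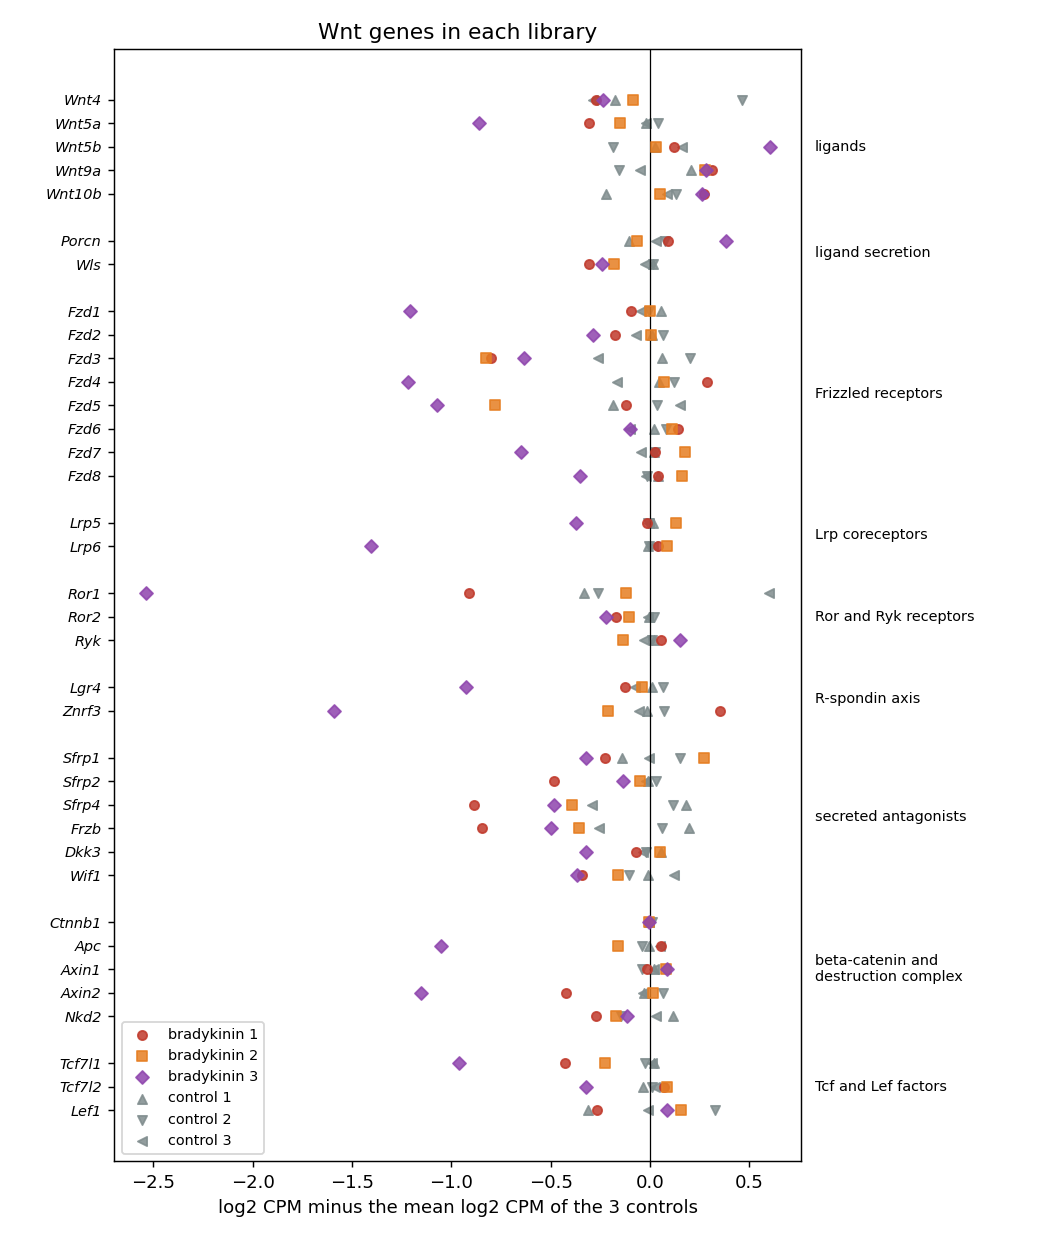
The 36 tested Wnt genes, grouped by role, with the log2 CPM of each library minus the mean log2 CPM of the 3 controls on the horizontal axis. Bradykinin libraries are coloured and controls grey. Bradykinin replicate 3 reaches -2.54 for Ror1 and -1.59 for Znrf3, where bradykinin replicates 1 and 2 lie nearer 0.

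Of the 36 genes, Wls alone passed the test in the fit without bradykinin replicate 3. There 3.1% of all tested genes were called, so 1 of 36 is near the share of all genes. Wls, the membrane protein that carries lipid-modified Wnts to the cell surface, was at 114, 125 and 119.7 CPM with bradykinin, against 143, 143 and 139 CPM in controls. All 3 bradykinin libraries lay below all 3 controls, and the gap between the groups exceeded the spread within either. The log2 fold change was -0.24 ± 0.09 over the 6 libraries (edgeR adjusted p = 0.714). Without bradykinin replicate 3 it was -0.24 ± 0.05, and Wls was called lower in that fit (edgeR adjusted p = 0.0277). Replicate 3 lay between replicates 1 and 2 for this gene. The spread between replicates over all genes, as the common biological coefficient of variation, was 0.0537 without replicate 3 and 0.168 with it. A fit of all 6 libraries that weights each by its quality, and gave replicate 3 a weight of 0.0518 against 1.31 to 2.81 for the others, also called Wls (limma-voom with sample quality weights, -0.25 ± 0.06, adjusted p = 0.0421). The call in the 5 libraries was lost when control replicate 1, control replicate 2, control replicate 3 or bradykinin replicate 1 was left out as well, with log2 fold changes of -0.24, -0.24, -0.26 and -0.18. Porcn, the acyltransferase that acts before Wls, was at 43.9, 39.3 and 53.8 CPM with bradykinin and 38.3, 43.5 and 42.0 CPM in controls, with overlapping groups (log2 fold change 0.15 ± 0.14; 0.01 ± 0.08 without bradykinin replicate 3).

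The promoter of Wls is shown because Wls was the gene called. It is the 300 bases from 250 before to 50 after the gene's start in RefSeq's annotation of GRCr8, chr2:251590403-251590702, plus strand, written 5′ to 3′ in lower case. Its GC content is 67.3%.
Wls promoter: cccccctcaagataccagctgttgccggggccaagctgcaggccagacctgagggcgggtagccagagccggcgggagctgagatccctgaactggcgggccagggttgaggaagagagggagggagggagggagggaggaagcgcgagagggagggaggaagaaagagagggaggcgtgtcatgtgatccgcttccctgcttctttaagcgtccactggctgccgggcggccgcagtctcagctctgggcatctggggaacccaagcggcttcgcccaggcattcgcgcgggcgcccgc
It holds no match to any of 4 forms of the Tcf/Lef motif, namely CTTTGAA or CTTTGAT and also CTTTGTA or CTTTGTT, searched on both strands; no other motif was searched, and matches could overlap.

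**Figure D2:**
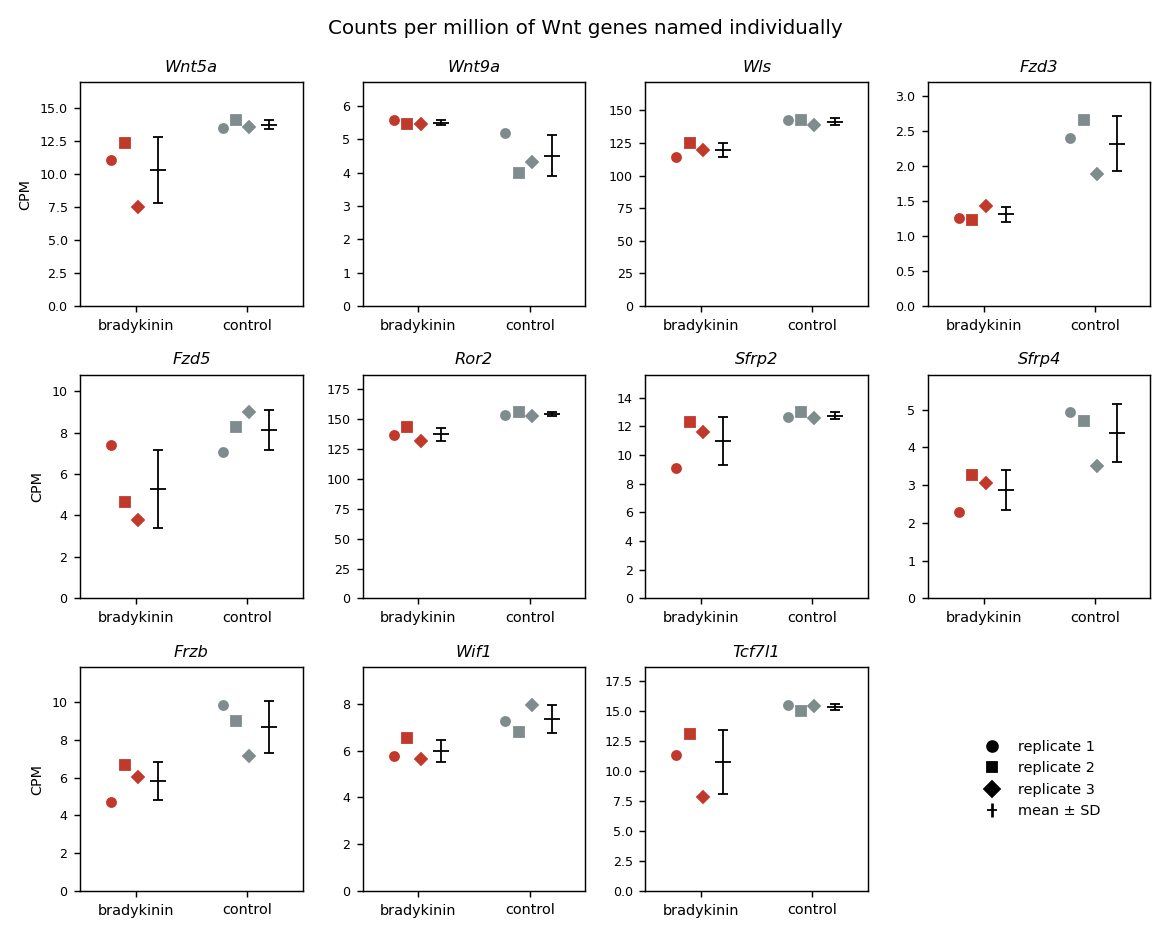
CPM of the 10 Wnt genes whose groups do not overlap and of Fzd5, with the 3 bradykinin libraries on the left and the 3 controls on the right of each panel; the bar beside each group is mean ± SD. Wls averages 119.6 CPM with bradykinin and 142 CPM in controls, with little spread in either group.

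Among the ligands, the differences pointed both ways. Wnt5a, the typical ligand of β-catenin-independent signalling, was at 11.03, 12.4 and 7.48 CPM with bradykinin and 13.5, 14.1 and 13.5 CPM in controls. The groups did not overlap, and replicate 3 was the lowest. The log2 fold change was -0.42 ± 0.19 (edgeR adjusted p = 0.737), and -0.23 ± 0.12 without bradykinin replicate 3 (adjusted p = 0.393). Its paralog Wnt5b had 17.7, 16.6 and 24.7 CPM with bradykinin and 16.6, 14.3 and 18.2 CPM in controls. Here replicate 3 alone lay above the controls, and the log2 fold change of 0.27 ± 0.18 shrank to 0.07 ± 0.12 without it. Wnt9a, a ligand linked to joint formation in mice, was at 5.60, 5.45 and 5.47 CPM with bradykinin and 5.20, 4.00 and 4.33 CPM in controls. Its groups did not overlap, although control replicate 1 came close to the bradykinin libraries (0.29 ± 0.17, edgeR adjusted p = 0.737; 0.29 ± 0.19 without bradykinin replicate 3).

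The other ligands had low counts, 33 to 41 with bradykinin and 38 to 63 in controls for Wnt4 and at most 12 in any library for Wnt10b. Wnt4 averaged 2.75 ± 0.201 CPM with bradykinin and 3.26 ± 1.012 CPM in controls, and Wnt10b 0.741 ± 0.0755 and 0.632 ± 0.0987 CPM. Wnt2b had 1, 1 and 0 counts with bradykinin and 4, 3 and 5 counts in controls, too few to be tested. Wnt11 had 3, 1 and 2 counts with bradykinin and 3, 9 and 1 counts in controls, and was not tested either.

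The Frizzled genes encode the receptors that bind Wnts through a cysteine-rich domain, and all 8 were tested. Of these, 7 had a log2 fold change below 0 in the 6 libraries, with a median of -0.16, but 4 without bradykinin replicate 3, with a median of 0.03. Fzd3, a receptor known from mice for its part in axon guidance and planar polarity, was at 1.26, 1.24 and 1.43 CPM with bradykinin and 2.403, 2.67 and 1.89 CPM in controls. Its groups did not overlap, and all 3 bradykinin libraries were close together. The log2 fold change was -0.82 ± 0.25 (edgeR adjusted p = 0.678, the smallest of the 36) and -0.89 ± 0.32 without bradykinin replicate 3 (adjusted p = 0.191). It rests on few reads, 16, 17 and 22 counts with bradykinin and 37, 38 and 28 counts in controls. Fzd5 was at 7.41, 4.65 and 3.77 CPM with bradykinin and 7.08, 8.28 and 8.99 CPM in controls. Bradykinin replicate 1 lay within the control range, so the groups overlapped (-0.63 ± 0.26; -0.43 ± 0.20 without bradykinin replicate 3).

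For Fzd4, Fzd7 and Fzd8 the sign turned without bradykinin replicate 3, while Fzd1, Fzd2 and Fzd6 kept theirs. Fzd1 was at 175, 187 and 80.8 CPM with bradykinin and 194, 186 and 181 CPM in controls. Replicates 1 and 2 lay near the controls and replicate 3 at under 100 CPM, so that the log2 fold change of -0.34 ± 0.28 became -0.05 ± 0.05 without it. Fzd7 was at 161, 179 and 101 CPM with bradykinin and 161, 161 and 154 CPM in controls, and Fzd4 at 10.4, 8.94 and 3.58 CPM with bradykinin and 8.77, 9.27 and 7.57 CPM in controls. Both were below 0 over the 6 libraries (-0.11 ± 0.20 and -0.17 ± 0.35) and above it without bradykinin replicate 3 (0.10 ± 0.05 and 0.18 ± 0.15). Fzd8 did likewise (-0.04 ± 0.14 and 0.10 ± 0.06). Fzd2 had log2 fold changes of -0.15 ± 0.11 and, without that library, -0.08 ± 0.07, and Fzd6 0.05 ± 0.11 and 0.12 ± 0.07.

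For both coreceptor genes the sign also turned without bradykinin replicate 3. Lrp6, which with Frizzled forms the receptor of the β-catenin branch, was at 249, 257 and 91.4 CPM with bradykinin and 241, 242 and 245 CPM in controls. Bradykinin replicates 1 and 2 lay just above the controls and replicate 3 far below them. The log2 fold change was -0.28 ± 0.34 with and 0.06 ± 0.04 without that library. Lrp5 was at 114, 126 and 89.2 CPM with bradykinin and 117, 115 and 115 CPM in controls (-0.07 ± 0.14 and 0.06 ± 0.06).

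The receptors Ror1, Ror2 and Ryk belong to β-catenin-independent signalling. Ror2, a Wnt5a receptor needed for skeletal growth in mice, was at 137, 143 and 132 CPM with bradykinin and 153, 156 and 153 CPM in controls. The groups did not overlap, and all 3 bradykinin libraries stood lower (-0.16 ± 0.09, edgeR adjusted p = 0.737; -0.14 ± 0.05 without bradykinin replicate 3, adjusted p = 0.175). Ror1 had 3.31, 5.81 and 0.976 CPM with bradykinin and 5.0003, 5.27 and 9.67 CPM in controls. It varied widely within both groups. Its log2 fold change was -0.99 ± 0.55, but -0.53 ± 0.30 without bradykinin replicate 3, -0.62 without control replicate 3 and -1.67 without bradykinin replicate 2. Ryk, at 144, 126 and 154 CPM with bradykinin and 141, 139 and 136 CPM in controls, overlapped between groups (0.03 ± 0.10; -0.04 ± 0.06 without bradykinin replicate 3).

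**Figure D3:**
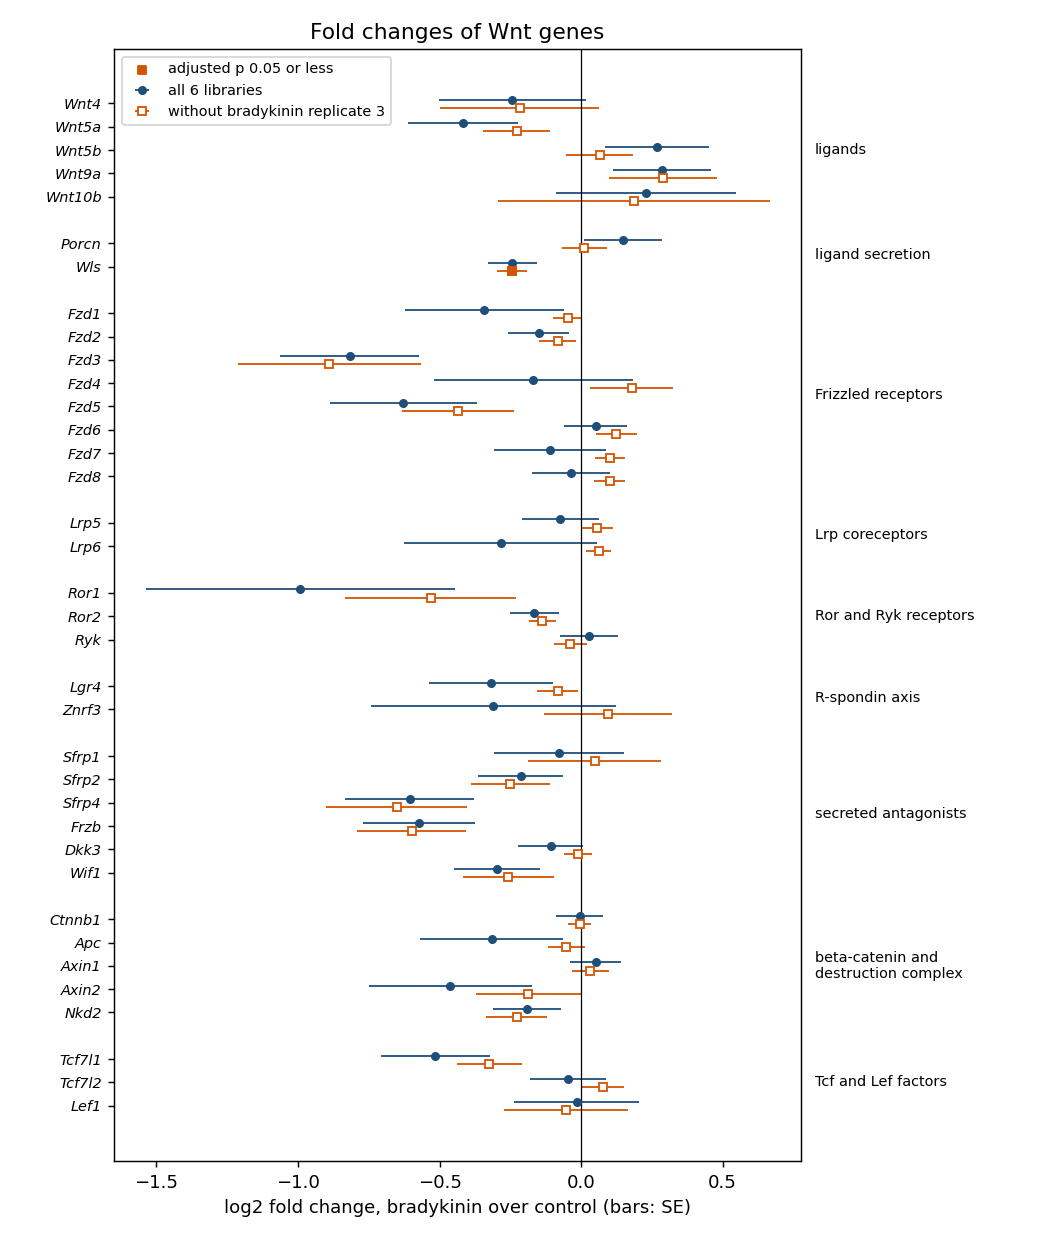
Log2 fold changes (bradykinin over control) with SE bars for the 36 tested Wnt genes, over all 6 libraries (filled circles) and without bradykinin replicate 3 (open squares; the filled square has an adjusted p of 0.05 or less). Wls, Sfrp4, Frzb and Fzd3 keep nearly the same value, at -0.24, -0.61, -0.57 and -0.82 over the 6 libraries, while Lrp6 and Fzd1 move toward or past 0.

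The secreted antagonists bind Wnts or their receptors outside the cell. All 6 tested had a log2 fold change below 0, with a median of -0.26 over the 6 libraries and -0.25 without bradykinin replicate 3, where 5 of the 6 were below 0. None passed the test, with edgeR adjusted p from 0.710 to 0.911. For 4 of the 6 every bradykinin library lay below every control, against 8.71% of all tested genes. Frzb, a soluble Frizzled-related protein of cartilage, was at 4.73, 6.68 and 6.05 CPM with bradykinin and 9.87, 8.99 and 7.17 CPM in controls. The highest bradykinin library, replicate 2, came close to the lowest control. The log2 fold change was -0.57 ± 0.20 (edgeR adjusted p = 0.710) and -0.60 ± 0.19 without bradykinin replicate 3 (adjusted p = 0.132).

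Sfrp4, another soluble Frizzled-related protein, was at 2.29, 3.27 and 3.06 CPM with bradykinin and 4.94, 4.70 and 3.52 CPM in controls. Replicate 1 was the lowest of the bradykinin libraries, as it was for Frzb and Sfrp2 (log2 fold change of Sfrp4 -0.61 ± 0.23; -0.65 ± 0.25 without bradykinin replicate 3, edgeR adjusted p = 0.219). Sfrp2 was at 9.06, 12.3 and 11.6 CPM with bradykinin and 12.7, 13.0 and 12.6 CPM in controls, where replicate 2 nearly reached the lowest control (-0.21 ± 0.15; -0.25 ± 0.14 without bradykinin replicate 3). Wif1, which binds Wnt ligands directly, was at 5.75, 6.54 and 5.66 CPM with bradykinin and 7.27, 6.81 and 7.98 CPM in controls, without overlap (-0.30 ± 0.15; -0.26 ± 0.16 without bradykinin replicate 3).

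Dkk3, a divergent member of the Dickkopf family, had the most counts of the group, 4144 to 4887 with bradykinin and 4812 to 5492 in controls. It was at 327, 355 and 274 CPM with bradykinin and 357, 338 and 335 CPM in controls, with overlapping groups (-0.11 ± 0.12; -0.01 ± 0.05 without bradykinin replicate 3). Sfrp1 averaged 3.36 ± 0.808 CPM with bradykinin and 3.54 ± 0.375 CPM in controls. Dkk2, which binds the Lrp coreceptors, had 0, 3 and 2 counts with bradykinin and 0, 0 and 1 in controls and was not tested.

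R-spondins strengthen Wnt signals by drawing the ubiquitin ligase Znrf3, which removes Frizzleds from the surface, into a complex with Lgr receptors. Lgr4 was at 39.1, 41.6 and 22.4 CPM with bradykinin and 42.9, 44.7 and 40.6 CPM in controls, with replicate 3 far below the rest (-0.32 ± 0.22; -0.08 ± 0.07 without it). Znrf3 was at 4.89, 3.27 and 1.17 CPM with bradykinin and 3.77, 4.00 and 3.65 CPM in controls (-0.31 ± 0.43; 0.09 ± 0.23 without bradykinin replicate 3). Rspo3 had 6, 6 and 3 counts with bradykinin and 13, 9 and 9 counts in controls, without overlap, and was too low to be tested.

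The intracellular core of the pathway, 5 tested genes with Nkd2 among them, had a median log2 fold change of -0.19 over the 6 libraries. That is the value of Nkd2. The median was -0.05 without bradykinin replicate 3. Ctnnb1, which encodes β-catenin, was at 464, 464 and 464 CPM with bradykinin and 463, 469 and 465 CPM in controls. The libraries of both groups lay within a few CPM of each other (-0.01 ± 0.08; -0.01 ± 0.04 without bradykinin replicate 3). Axin1, a scaffold of the destruction complex, averaged 50.4 ± 2.01 CPM with bradykinin and 48.6 ± 1.16 CPM in controls. Apc, its tumour suppressor partner, was at 117, 100.4 and 54.1 CPM with bradykinin and 112, 109.1 and 116 CPM in controls, so that -0.32 ± 0.25 over the 6 libraries became -0.05 ± 0.07 without replicate 3. Nkd2, an inhibitor that binds Dishevelled, was at 17.6, 18.9 and 19.7 CPM with bradykinin and 23.1, 19.2 and 21.8 CPM in controls, where replicate 3 lay just inside the control range (-0.19 ± 0.12; -0.23 ± 0.11 without it).

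Axin2, a negative regulator that is itself a standard target gene of β-catenin signalling, was at 4.41, 6.03 and 2.60 CPM with bradykinin and 5.84, 6.25 and 5.81 CPM in controls. Replicate 2 lay within the control range and replicate 3 lowest (-0.46 ± 0.29, edgeR adjusted p = 0.737; -0.19 ± 0.19 without bradykinin replicate 3). Its promoter, chr10:94398535-94398834 of GRCr8 on the plus strand, again from 250 bases before to 50 after the RefSeq start, is shown because it holds 2 matches to the Tcf/Lef motif, in capitals, which begin 232 and 132 bases before the start.
Axin2 promoter: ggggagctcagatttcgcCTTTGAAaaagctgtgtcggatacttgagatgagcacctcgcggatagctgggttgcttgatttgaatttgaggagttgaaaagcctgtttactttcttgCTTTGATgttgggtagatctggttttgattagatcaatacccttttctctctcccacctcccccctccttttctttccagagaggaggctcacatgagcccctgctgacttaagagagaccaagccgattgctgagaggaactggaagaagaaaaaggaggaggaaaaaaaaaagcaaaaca
The RefSeq table held promoters of 28 of the 41 listed genes, Wnt2 included. Of the 24 whose expression was tested, 2 held such a match (8.33%), Axin2 and Fzd7, against 10.8% of 9483 promoters of tested genes. Of all 28, 7.14% held one, against 16.8% of all 27457 promoters. GC content was 45.7% in the Axin2 promoter, against a median of 65.2% over the 24 and also over the 28. The median was 61.3% over promoters of tested genes and 52.3% over all promoters. The part of GC content in the shares with a match was not tested. A match is a string of letters and not a shown binding site.

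Of the transcription factor genes, Tcf7l1, a factor that mostly represses Wnt targets, was at 11.4, 13.1 and 7.81 CPM with bradykinin and 15.52, 15.02 and 15.4 CPM in controls. The groups did not overlap, and the controls lay close together. The log2 fold change was -0.51 ± 0.19 (edgeR adjusted p = 0.714) and -0.32 ± 0.12 without bradykinin replicate 3 (adjusted p = 0.180). Tcf7l2 was at 32.9, 33.3 and 25.1 CPM with bradykinin and 30.7, 31.6 and 32.0 CPM in controls (-0.05 ± 0.13; 0.08 ± 0.07 without bradykinin replicate 3), and Lef1 at 4.57, 6.18 and 5.86 CPM with bradykinin and 4.42, 6.95 and 5.48 CPM in controls. Lef1 overlapped between the groups (-0.02 ± 0.22; -0.05 ± 0.22 without bradykinin replicate 3).

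Genomic span is the length of a gene from start to end in the RefSeq annotation of GRCr8. It was known for 92.4% of tested genes, and for all 36 Wnt genes. Across all genes with a span, the values of bradykinin replicate 3 fell as span grew. In that library the median deviation from the control mean was 0.35 for the shortest of 4 equal classes of span and -0.45 for the longest. In bradykinin replicates 1 and 2 these medians were -0.01 and 0.01 for the shortest and 0.00 and -0.02 for the longest. The median of the Wnt genes in replicate 3 was lowest in the shortest class, while over the longer classes it fell as span grew. The 14 Wnt genes in the longest class deviated by a median of -0.37 there, against -0.45 for all genes of the class. Lrp6, Ror1, Znrf3, Wls and Tcf7l1 were among these 14. In the class next to the longest, 11 Wnt genes deviated by -0.32, against -0.08 for all genes. In that next to the shortest, 3 deviated by -0.24, against 0.13. The 8 in the shortest class, which include Fzd1, Fzd2, Fzd4, Fzd5, Fzd7 and Fzd8, deviated by -0.50, where all genes of that class stood at 0.35. Several of these Frizzled genes are known for coding sequences without introns, so that a short span need not mean a short transcript. Transcript length was not used here, and its part in these values was not tested.

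**Figure D4:**
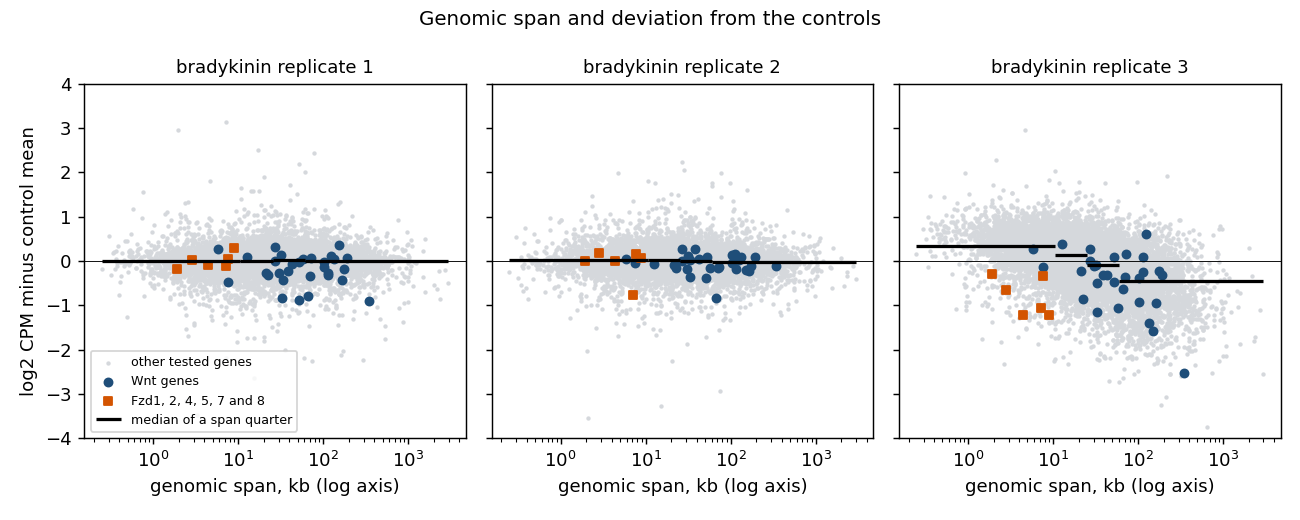
Genomic span in kilobases (log axis) against the log2 CPM deviation from the control mean, for each bradykinin library. Wnt genes are blue, Fzd1, 2, 4, 5, 7 and 8 are orange squares, other genes with a span are grey, and black lines are medians of 4 equal classes of span; the vertical axis ends at -4 and 4, which leaves out 1 gene in replicate 2. In replicate 3 the medians run from 0.35 down to -0.45 while the 6 Frizzled genes lie below 0.

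Other genes of the pathway were taken from a list of 82 textbook components. Of these, 69 had a row and 52 were tested. None was called over the 6 libraries by edgeR, DESeq2 or limma-voom, or by edgeR without bradykinin replicate 3. Over the 6 libraries, 37 lay below 0 and 15 above, with a median of -0.13, and without bradykinin replicate 3 the same 52 split into 32 below and 20 above, with a median of -0.02. At an unadjusted p under 0.05 stood 3, all lower, a share of 5.77% against 2.89% of all genes lower and 6.84% in either direction, so the share was no higher than that of all genes counted in both directions. Without bradykinin replicate 3 there were 10 of 55 tested, 6 lower and 4 higher, against 15.2% of all genes. For 9 of the 52 every bradykinin library lay below every control, 17.3% against 8.71% of all tested genes. The reverse held for 1, Myc, against 8.84% of all tested genes. Rspo1, an R-spondin, was at 60.8, 63.4 and 50.9 CPM with bradykinin and 72.6, 72.0 and 67.9 CPM in controls. Every bradykinin library lay below every control (-0.28 ± 0.11, edgeR adjusted p = 0.714; -0.19 ± 0.06 without bradykinin replicate 3, adjusted p = 0.137). Apcdd1, a membrane-bound Wnt inhibitor and target gene, was at 0.552, 0.291 and 0.586 CPM with bradykinin and 1.88, 1.33 and 1.15 CPM in controls. It showed the largest difference of the list but at a very low level (-1.59 ± 0.38, edgeR adjusted p = 0.586; -1.79 ± 0.49 without bradykinin replicate 3, adjusted p = 0.0731). Daam1, a formin that acts downstream of Dishevelled, was at 17.7, 18.2 and 11.7 CPM with bradykinin and 22.2, 20.01 and 22.0 CPM in controls, again without overlap (-0.43 ± 0.18; -0.25 ± 0.10 without bradykinin replicate 3).

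Commonly used target genes pointed both ways. Of 11 tested, 4 were above 0 and 7 below. Ccnd1 and Myc, textbook targets named after their values were seen, had log2 fold changes of -0.09 ± 0.09 and 0.18 ± 0.10, and -0.12 ± 0.05 and 0.18 ± 0.08 without bradykinin replicate 3, and did not pass. Ccnd1 averaged 272 ± 12.5 CPM with bradykinin and 289 ± 9.09 CPM in controls, and Myc 54.1 ± 0.846 and 47.7 ± 4.42 CPM. For Myc every bradykinin library lay above every control, while for Ccnd1 the groups overlapped.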

How the data were processed

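The authors deposited unnormalized counts, as whole numbers, for each gene with an Ensembl identifier. The submitters' processing notes name RSEM 1.3.3, HISAT2 2.2.1, SAMtools, DESeq2 1.34.0, fastp 0.23.2 and Bowtie2 2.4.5 and the build Rnor_6.0. RSEM gives estimated counts, and no source used here says how they became whole; it shares reads among similar genes, so paralogs can exchange counts. Strand is not stated.

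Entrez identifiers were matched to symbols in a RefSeq gene table (GRCr8). The members and lists were chosen with earlier results of these data known. The test was that of edgeR 4.0.16 under R 4.3.3: filterByExpr, TMM, quasi-likelihood F test, two-sided, Benjamini-Hochberg over 12413 genes, called at 0.05 or less. SE is the log2 fold change divided by the root of F. All replicate pairs differed by more than counting noise (smallest chi-square per degree of freedom within a group 2.29). The computation was tested on simulated data. Alternatives were RLE factors, library totals, DESeq2 1.42.0, limma-voom (limma 3.58.1) with and without sample quality weights, no filter, 1 CPM in 3 libraries, each library left out, and the replicate block. Alternatives within the 5 libraries without bradykinin replicate 3, and counts of groups that do not overlap with a library left out, were chosen after seeing the data.

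All members are named. Values of every library are given for members with an unadjusted p under 0.05, those called without bradykinin replicate 3 and, in each role, the one with the most counts. The other members with such values, such as those whose groups do not overlap, were chosen after their values were seen. Of other pathway genes, those with an unadjusted p under 0.05 over the 6 libraries are named. Deviations are log2 CPM with a prior count of 2.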

Additional observations from a re-analysis of the deposited data

How the results depend on the processing

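Of 503 log2 fold changes of the 36 Wnt genes under the alternatives, 479 kept their direction and side of the threshold, 22 reversed, in 11 genes, and 2, both of Wls, passed it. None of the 25 other genes reversed in these runs, which were of the 6 libraries or left 1 of them out. Runs that left out a further library besides bradykinin replicate 3 are not among the 503. With bradykinin replicates 1 and 3 both left out, 17 Wnt genes lay above 0 and 20 below. Scaling by RLE factors or library totals reversed none. Over all genes, the 0 called by edgeR became 44 with DESeq2, 259 with sample quality weights, and 0 to 388 with a library left out. The 0 Wnt genes called became 1 with sample quality weights and 0 to 1 with a library left out. The 6 at an unadjusted p under 0.05 became 3 with the replicate block and 1 to 8 with a library left out. Over all genes, 849 in either direction became 591 with the replicate block and 368 to 1900 with a library left out. The replicate numbers are shared by title alone, and deviations of same-numbered libraries correlated at -0.09, -0.02 and -0.05, so they were not treated as pairs.

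With sample quality weights, Fzd4, Fzd7, Fzd8, Lrp5, Lrp6, Ryk, Znrf3 and Tcf7l2 reversed, to 0.15, 0.080, 0.091, 0.044, 0.033, -0.028, 0.046 and 0.066, as they did without bradykinin replicate 3, and Lef1 reversed with limma-voom (0.0050). With a library left out, Fzd4 ran from -0.45 to 0.18, Fzd7 from -0.28 to 0.10, Fzd8 from -0.15 to 0.10, Lrp5 from -0.19 to 0.058 and Lrp6 from -0.51 to 0.062. Ryk ran from -0.038 to 0.10, Znrf3 from -0.79 to 0.094, Sfrp1 from -0.29 to 0.047, Tcf7l2 from -0.12 to 0.078, Lef1 from -0.17 to 0.16 and Wnt4 from -0.39 to 0.036. The cause was not tested.

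In the 5 libraries, the 388 genes called became 681 with no filter and 138 to 333 with a further library left out. There, 2 Wnt genes were called with no filter, Wls and Frzb, and 0 to 1 with a further library left out. The 7 at an unadjusted p under 0.05 became 3 with DESeq2 and 4 to 7 with a control left out as well. Over all genes, 1900 in either direction became 1164 with DESeq2 and 1520 to 1649 with a control left out as well. Of the other pathway genes 1, Apcdd1, was called with no filter. Wls ran from -0.31 to -0.18 with a further library left out. With 1 of the 6 libraries left out, the 9 Wnt genes whose bradykinin libraries all lay below the controls became 10 to 17. Among all 12413 tested genes, 1081 with bradykinin below became 1478 to 1935. The 1 Wnt gene with bradykinin above became 1 to 6, and 1097 of all tested genes became 1489 to 2016. With fewer libraries, groups overlap less by construction. Where bradykinin replicate 1 or 2 was left out too, the lone bradykinin library is assumed to vary like the controls.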
